A study of Mus musculus with 6 samples.

Results

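The 44 genes described here carry out or control cell division, and they were picked by gene symbol from the 32286 genes that each of the 6 libraries counts. Grouped by role, 26 act in mitosis or peak around it, 10 in the start of DNA replication, 3 are D cyclins, 4 are inhibitors of cyclin-dependent kinases, and 1, Sapcd2, orients the mitotic spindle. The libraries came from digits in a dish (DID) cultures, for which distal forelimb mesenchyme of E11.5 embryos of wildtype CD-1 mice was pooled, dissociated and plated at high density, where it reassembles into digit-like cartilage with joints, tendon and muscle around it. Single cells were captured with the 10x Genomics 3′ kit at Day 2, Day 7 and Day 10 of culture, with replicates A and B from separate cultures at each day (n = 2). The groups carry no transgene, mutation or drug and differ in days of culture, and because embryos were pooled the replicates are cultures rather than animals.

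After the limits of the study were applied, the libraries held between 9448 and 16485 cells and between 178021111 and 260245417 unique molecular identifiers (UMIs). The median depth of a cell, in UMIs and in the order replicate A, replicate B, was 18587 and 3871 on Day 2, 8067 and 9337 on Day 7 and then 24197 and 22128, so that Day 2 replicate B and both Day 7 libraries were shallower than the rest. Cells with fewer than 3000 UMIs made up 41.4% of Day 2 replicate B, 30.8% and 23.5% of the Day 7 libraries and between 6.84% and 10.9% of the others. Any pair of libraries shared between 24 and 67 barcodes.

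A dividing cell commits to replication when D cyclins and then cyclin E, with their kinases, inactivate the retinoblastoma proteins and free E2F factors, which switch on the genes for DNA synthesis. Mitosis follows when cyclin A and cyclin B with Cdk1, helped by the Polo and Aurora kinases, condense the chromosomes and build the spindle, and it ends when the anaphase-promoting complex, through Cdc20 and Ube2c, destroys the cyclins. Inhibitors such as p21 (Cdkn1a), p27 (Cdkn1b), p16 (from Cdkn2a) and p15 (Cdkn2b) hold the kinases in check, and in the limb, growth plate cartilage keeps dividing until its cells mature, whereas tendon and joint surface cells divide less as they specialise.

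Most mitotic genes are known to be silenced outside the cycle through the CHR element, read TTTGAA here, with CCAAT boxes close by, and replication genes through E2F sites. Promoters 250 bases upstream to 50 downstream of the first listed start were matched by symbol for 37 of the 44 members in RefSeq (GRCm38.p6), and both strands were searched. TTTGAA stood in 17 of 22 mitotic promoters (77.3%), against 18.1% of the 27025 promoters listed, and in 1 of 9 replication promoters. CCAAT stood in 19 of the 22 mitotic promoters and in 6 of the 9 replication promoters, against 37.9% of all, and both motifs stood in 16 of the 22 and in 1 of the 9, against 7.12% of all. Letters of the E2F type, read as TTCCCGC, as TTGGCGC, as TTCGCGC and as TTGCCGC, stood in 4 of 9 replication promoters and in 5 of 22 mitotic ones, against 9.69% of all. These are matches of letters and not sites of binding. Shown are the 160 bases before the start, 5′ to 3′ with the motifs in capitals, of Cdc20 and Mki67, 2 mitotic genes that moved apart between Day 7 and Day 10, of Cdkn3, the mitotic member that did not pass the test between any days, and of Mcm5, a replication gene in which the E2F letters on the 2 strands overlap:
Cdc20, chr4:118437344-118437503, minus strand: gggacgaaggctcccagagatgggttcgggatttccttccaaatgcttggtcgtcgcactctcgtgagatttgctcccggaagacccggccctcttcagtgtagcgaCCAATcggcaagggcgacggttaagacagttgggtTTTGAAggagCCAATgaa
Mki67, chr7:135716380-135716539, minus strand: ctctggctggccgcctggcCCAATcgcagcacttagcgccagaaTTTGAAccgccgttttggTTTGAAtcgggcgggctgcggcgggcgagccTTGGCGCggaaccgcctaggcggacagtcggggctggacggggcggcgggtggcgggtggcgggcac
Cdkn3, chr14:46760381-46760540, plus strand: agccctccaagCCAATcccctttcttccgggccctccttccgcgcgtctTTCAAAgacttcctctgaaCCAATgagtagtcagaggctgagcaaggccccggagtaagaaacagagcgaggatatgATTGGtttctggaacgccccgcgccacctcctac
Mcm5, chr8:75109349-75109508, plus strand: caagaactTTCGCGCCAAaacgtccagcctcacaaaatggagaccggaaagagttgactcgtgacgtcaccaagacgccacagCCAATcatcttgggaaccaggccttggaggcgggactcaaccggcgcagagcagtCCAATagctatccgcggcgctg

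Between Day 2 and Day 7 most genes of mitosis and replication fell, while 3 of the 4 inhibitors rose. UMIs were summed over the cells of each library and scaled as CPM, the usual measure of the share of a library that a gene takes, with TMM factors for library size, and days were compared with edgeR's quasi-likelihood test. All 44 members were among the 18990 genes tested, and 36 were lower at Day 7, where 34.6% of all genes were lower, while 6 were higher, where 35.7% of all genes were higher. The median log2 fold change was -1.13 over the members and 0.01 over all genes. Among the 26 mitotic members, 25 fell and none rose, with a median of -1.31, and the sum of their CPM went from 2726 and 2789 at Day 2 to 1146 and 1198 at Day 7. Sums over a culture cannot tell fewer dividing cells from less of these RNAs in each. Between Day 7 and Day 10 the members split, 10 being higher and 12 lower, against 26.3% and 25.9% of all genes, with a median of 0.04. Both counts lay near the shares of all genes. Between Day 2 and Day 10, 5 were higher and 37 lower, against 39.0% and 38.2% of all genes, with a median of -1.08.

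**Figure D1:**
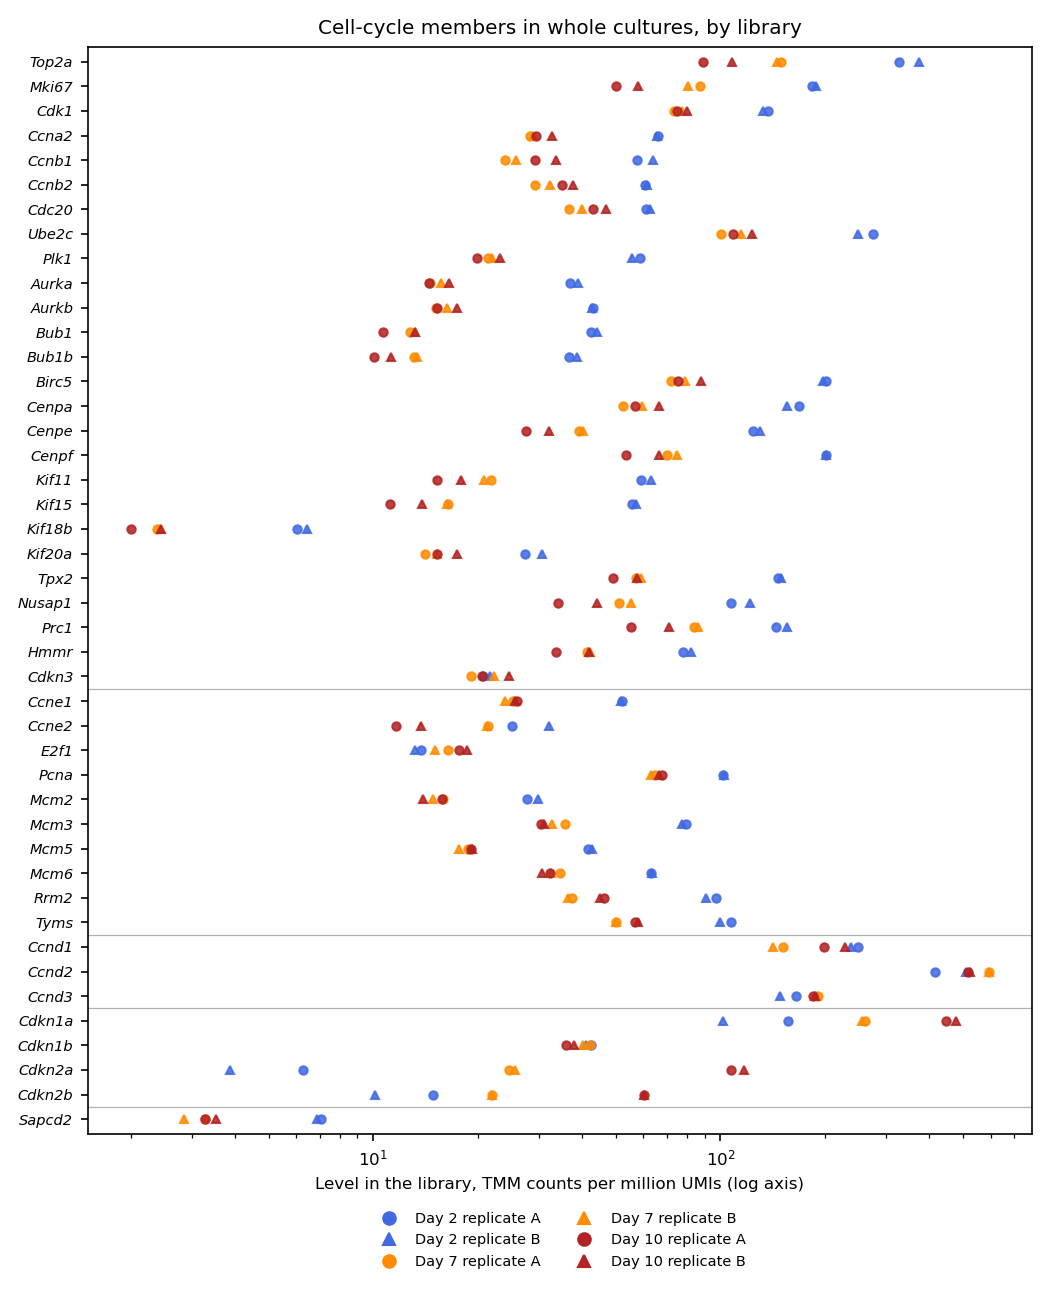
Level of each of the 44 members (1 line each, lines between roles) in the 6 libraries, in TMM-scaled CPM on a log axis, with colours for days, circles for replicate A and triangles for replicate B. In 25 of 26 mitotic members the Day 7 libraries lie left of those of Day 2, and Cdkn1a, Cdkn2a and Cdkn2b move to the right at each day.

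Transcripts of Top2a and Mki67 fell at both steps. Top2a, the topoisomerase that untangles sister chromatids, stood at 328 and 374 CPM in the Day 2 replicates, 149 and 146 at Day 7 and 89.2 and 108 at Day 10. Each day lay apart from the others, and Top2a fell by 1.25 ± 0.10 on the log2 scale (SE; adjusted p = 4.71e-06) and then by 0.58 ± 0.10 (adjusted p = 0.00135). Mki67, which coats mitotic chromosomes and marks cycling cells, went from 184 and 188 CPM to 87.1 and 80.6 and then to 49.9 and 57.9. Its second step, -0.64 ± 0.07, was the largest fall between Day 7 and Day 10 among the mitotic members.

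The 7 kinases and cyclins that start mitosis fell by Day 7, and none of them fell further by the test. Ccnb1, cyclin B1, was at 57.4 and 63.8 CPM at Day 2, dropped to 23.9 and 25.7 at Day 7 and reached 29.3 and 33.6 at Day 10. It fell by 1.29 ± 0.08 and then rose by 0.34 ± 0.08 (adjusted p = 0.00763), and Day 10 lay between the other days without overlap. Ccnb2, cyclin B2, followed the same course with 60.4 and 61.4, then 29.2 and 32.3, then 35.02 and 37.7 CPM, and its later rise was 0.24 ± 0.06 (adjusted p = 0.0121). Cdk1, the kinase that both bind, fell from 137 and 132 CPM to 73.4 and 77.6 and stood at 74.8 and 80.0 at Day 10. The later step of Cdk1 was 0.04 ± 0.06, and those of Ccna2 (0.12 ± 0.06), Plk1 (-0.01 ± 0.07), Aurka (0.04 ± 0.07) and Aurkb (0.06 ± 0.07) did not pass the test either. Over the first step these 4 fell by between 1.20 and 1.44.

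The genes of the spindle checkpoint and of the enzymes that end mitosis fell at the first step. Bub1b, the checkpoint protein BubR1, was at 36.6 and 38.7 CPM, then 13.1 and 13.3, then 10.1 and 11.2, and fell at both steps, by 1.51 ± 0.06 and 0.31 ± 0.06. Bub1, its partner kinase at the kinetochore, fell by 1.74 ± 0.09 and then changed by -0.12 ± 0.09, which did not pass. Cdc20, the activator of the anaphase-promoting complex, was at 61.1 and 62.8 CPM, then 36.7 and 39.9, then 42.9 and 46.8. It fell by 0.69 ± 0.06, the least of the 25, and rose by 0.23 ± 0.06 (adjusted p = 0.0153). Ube2c, the conjugating enzyme of that complex, fell by 1.29 ± 0.09 and then stood 0.11 ± 0.09 above Day 7, which did not pass.

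Centromere proteins and spindle motors held the deepest falls. Kif15, a kinesin that keeps the spindle bipolar, went from 55.7 and 57.1 CPM to 16.4 and 16.4 and then to 11.2 and 13.9, and its fall of 2.17 ± 0.09 from Day 2 to Day 10 was the largest of all members. Cenpe, the motor that carries chromosomes to the spindle equator, went from 124 and 130 CPM to 39.2 and 40.3 and to 27.6 and 32.1, a fall of 2.09 ± 0.07 in all. Cenpf, Kif11, Nusap1 and Prc1, which act at kinetochores and on spindle microtubules, also fell at both steps, by between 0.27 and 0.44 at the later one. The other 6 of these groups fell at the first step and did not pass the test at the later one. They were Cenpa, the centromeric histone, Birc5 of the chromosomal passenger complex, the motors Kif18b and Kif20a, the spindle assembly factor Tpx2, and Hmmr, with later steps between -0.14 and 0.16. Whether the later steps of genes that fell and of genes that did not differ from each other was not tested.

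Cdkn3, a phosphatase of Cdk2 that is counted with the mitotic genes, stood at 20.7 and 21.7 CPM at Day 2, then at 19.2 and 22.3, then at 20.5 and 24.6. Its 3 days overlapped, and its changes of -0.03 ± 0.10 and 0.12 ± 0.10 did not pass. Between Day 2 and Day 10 Cdkn3 changed by 0.09 ± 0.10, and with cells thinned to 1000 UMIs, shallower ones left out, it turned to a called fall, of 0.51 (adjusted p = 0.00592). Sapcd2, which sets the angle of the spindle, went from 7.08 and 6.90 CPM to 3.28 and 2.84, a fall of 1.19 ± 0.09, and stood at 3.28 and 3.53 at Day 10.

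Of the 10 replication genes, 9 fell at the first step, against 34.6% of all genes. At the later one 3 rose, 2 fell and 5 did not pass, near the 26.3% of all genes that were higher and 25.9% that were lower. Their summed CPM was 608.3 and 603.4 on Day 2, 320.1 and 307.6 on Day 7 and then 323.3 and 321.8. Mcm5, a subunit of the replicative helicase, went from 41.4 and 42.6 CPM to 18.7 and 17.6 and then 19.1 and 19.2, a fall of 1.21 ± 0.05 with a later step of 0.08 ± 0.05. Mcm2, Mcm3 and Mcm6 of the same ring fell by between 0.91 and 1.20, and of these Mcm3 alone passed the test at the later step, with -0.16 ± 0.06 (adjusted p = 0.042). Pcna, the sliding clamp of the polymerases, fell from 101 and 103 CPM to 64.9 and 63.0 and stood at 67.7 and 66.3 at Day 10.

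Rrm2 and Tyms, members whose enzymes supply nucleotides, turned up again by Day 10. Rrm2, the regulatory subunit of ribonucleotide reductase, was at 97.1 and 90.9 CPM, then 37.4 and 36.4, then 46.0 and 45.0, which is a fall of 1.35 ± 0.05 and a rise of 0.30 ± 0.05 (adjusted p = 0.00165). Tyms, thymidylate synthase, fell by 1.05 ± 0.05 and rose by 0.19 ± 0.05. The E cyclins parted, since Ccne1 fell by 1.08 ± 0.05 and then changed by 0.06 ± 0.05, while Ccne2 went from 25.1 and 32.0 CPM to 21.4 and 21.3 and then to 11.6 and 13.7. The later fall of Ccne2, 0.75 ± 0.12 (adjusted p = 0.000923), was the largest of the 44 members between Day 7 and Day 10.

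E2f1, the factor that drives replication genes, was the 1 of the 10 that rose at the first step, and it rose again at the later one. It stood at 13.7 and 13.2 CPM at Day 2, then at 16.4 and 15.0, then at 17.7 and 18.7. The rises were 0.23 ± 0.06 (adjusted p = 0.00945) and 0.21 ± 0.06 (adjusted p = 0.0189), with no overlap between days. With library totals alone in place of TMM factors, which moves the median of all genes by -0.27 between Day 2 and Day 7, E2f1 turned to -0.06 and Ccnd3 to -0.01 for that step, so their direction holds relative to the other genes only.

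The 3 D cyclins link growth signals to the cycle, and at the first step Ccnd1 fell while Ccnd2 and Ccnd3 rose, with summed CPM between 829.9 and 940.5 in all libraries. Ccnd1 was at 249 and 238 CPM, then 152 and 142, then 198 and 228, falling by 0.73 ± 0.08 and rising by 0.54 ± 0.08 (adjusted p = 0.000557). Ccnd2 was at 416 and 510 CPM, then 592 and 594, then 516 and 525, and its rise of 0.36 ± 0.09 passed while its later step of -0.19 ± 0.09 did not. Ccnd3 rose by 0.28 ± 0.06 and then changed by -0.03 ± 0.06.

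Of the 4 inhibitors, 3 rose at both steps, where 35.7% of all genes were higher at the first and 26.3% at the later one. Cdkn2a, whose locus encodes p16 and p19Arf, went from 6.29 and 3.86 CPM to 24.6 and 25.6 and then to 107 and 117. Its rises were 2.30 ± 0.18 (adjusted p = 4.47e-06) and 2.16 ± 0.17 (adjusted p = 3.58e-05), and Day 10 was 22.0-fold above Day 2. The 2 transcripts of Cdkn2a share their 3′ end, so these counts do not separate p16, the kinase inhibitor, from p19Arf. Cdkn2b (p15), its neighbour at chr4:89306299-89311039 next to chr4:89274471-89294653 of GRCm38, went from 14.9 and 10.1 CPM to 21.9 and 22.0 and then to 60.3 and 60.3, rising by 0.81 ± 0.14 and 1.46 ± 0.14. Cdkn1a (p21) was at 156 and 102 CPM, then 261 and 255, then 445 and 478, and rose at both steps, by 0.84 ± 0.16 (adjusted p = 0.00273) at the later one. Cdkn1b (p27) was between 40.1 and 42.4 CPM at Day 2 and Day 7 and at 35.8 and 37.9 at Day 10, a later step of -0.16 ± 0.05 (adjusted p = 0.0356).

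**Figure D2:**
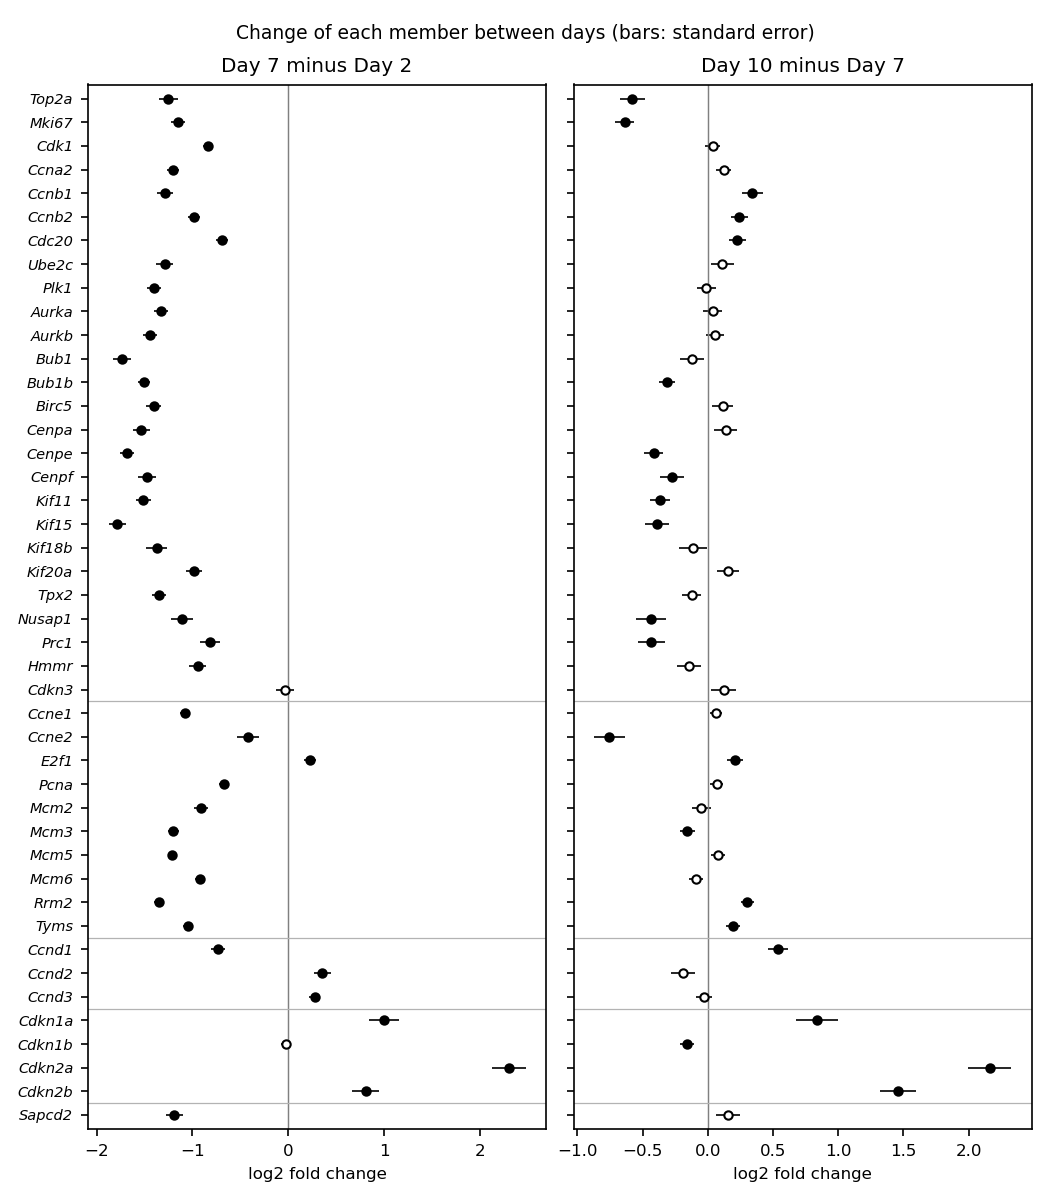
Log2 fold changes with SE of the 44 members between Day 2 and Day 7 and between Day 7 and Day 10, by edgeR's quasi-likelihood test (n = 2 libraries a day), with filled points for an adjusted p under 0.05. The first step holds the fall of the mitotic members, with a median of -1.31, and the second is spread around a median of -0.06.

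Genes of the cycle that are not members moved alike at the first step. Of 36 further S-phase genes, 35 were lower at Day 7 than at Day 2 and 0 higher, and of 37 further G2 and mitosis genes 36 were lower and 0 higher. Nasp, a chaperone of histones, went from 413 and 427 CPM to 102 and 101 and then to 83.1 and 83.8, and Cdca7 fell by 1.83 ± 0.06. Among 11 licensing factors of replication origins 9 were lower, and among 18 DREAM and E2F regulators 15 were. At the later step 21 of the 36 and 15 of the 37 were lower, and 2 and 5 were higher. Of all genes, 34.6% were lower and 35.7% higher at the first step, and 25.9% lower and 26.3% higher at the later one.

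The 14 targets of p53, a list without Cdkn1a, were 7 higher and 2 lower at Day 7, where 35.7% and 34.6% of all genes were, and all 14 were higher at Day 10 than at Day 7, against 26.3% of all genes, with a median of 0.56. Gadd45a, a DNA damage response gene, went from 15.3 and 15.1 CPM at Day 7 to 29.1 and 28.9, and Phlda3, a repressor of Akt, from 86.8 and 89.9 to 170 and 165. Further inhibitors and quiescence genes split, with 7 of 13 higher and 3 lower at Day 7, against the same 35.7% and 34.6%. Cdkn2c (p18) rose there from 3.96 and 3.84 CPM to 12.8 and 14.1, and Cdkn1c (p57), an inhibitor of cartilage cells leaving the cycle, fell from 2311 and 2347 CPM at Day 7 to 951 and 960 at Day 10. Fbxo32, a ubiquitin ligase subunit, rose by 2.38 ± 0.12 between Day 2 and Day 10.

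The makeup of the cultures changed along with these genes. The summed CPM of a list of chondrocyte markers went from a mean of 1395 at Day 2 to 15590 at Day 7 and 10160 at Day 10, that of tenocyte markers from 664 to 2065 and 3767, and that of muscle markers from 419 to 93.3 and 29.2. Macrophage markers went from 16.1 to 34.9 and 122, and erythroid markers from 89.1 to 0.0546 and 0.0579, while dissociation response genes stood at 1424, 1257 and 1432. Of the tenocyte list, Col1a1 gave most of the sum in each library, with 936164 UMIs in Day 10 replicate A against 16410 of Scx and 7029 of Tnmd. Between Day 2 and Day 10 the UMI counts of Scx, Mkx and Kera fell, while those of Tnmd, Fmod and Thbs4 rose. The part of these shifts in the results was not tested. The 2 libraries named next decided a count, as the 10 members higher at Day 10 than at Day 7 became 6 without Day 7 replicate A and 5 without Day 10 replicate B.

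Per cell, fewer cells reached a given number of mitotic UMIs after Day 2. Cells were thinned to 1000 UMIs, which left out those below that depth, so that 9328 of 9448 cells stayed in Day 2 replicate A, 10180 of 10385 and 9828 of 9949 at Day 10 and all cells of the other libraries. Of these, cells with at least 1 UMI of the 26 mitotic members made up 51.8% and 73.9% in the Day 2 libraries, 36.2% and 29.5% at Day 7 and 25.5% and 26.5% at Day 10. A UMI of these genes need not mean a dividing cell, and the share that free RNA gives was not measured. Cells with UMIs of at least 3 of 5 muscle genes were planned as the level of cells that have left the cycle. They may include progenitors that still divide. Their share was 41.8% of 287 and 70.3% of 434 cells at Day 2, at median depths of 27215 and 4481 UMIs. Cells with fewer than 3000 UMIs showed a mitotic UMI more often than deeper cells in all 6 libraries, at 59.4% against 25.8% in Day 7 replicate A.

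The spread among cells differed by depth. In cells of at least 3000 UMIs, the variance of mitotic UMIs was 6.78 and 4.71 times their mean on Day 2, 6.87 and 7.00 times on Day 7 and then 6.04 and 6.37 times, so these UMIs were spread unevenly over cells. In shallower cells of the Day 7 libraries it was 1.19 and 1.35 times the mean, near the 1 of random scatter, although their mean of 0.962 and 0.731 mitotic UMIs lay near the 0.875 and 0.826 of the deeper cells. At Day 2 the shallow cells had ratios of 4.45 and 2.06. Cells with at least 5 mitotic UMIs of 1000 were 1.03% and 0.585% of the shallow cells at Day 7 and 18.6% and 21.3% at Day 2.

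Among cells of at least 3000 UMIs, those with at least 5 mitotic UMIs were 22.5% and 23.7% at Day 2, with exact 95% binomial intervals of 21.7 to 23.4% and 22.9 to 24.6%. At Day 7 they were 6.47% (5.98 to 6.99%) and 6.102% (5.63 to 6.60%), and at Day 10 they were 5.36% (4.92 to 5.84%) and 6.44% (5.94 to 6.98%). The Day 2 libraries lay above the others, and Day 7 overlapped Day 10. The intervals cover counting error only, and between one day and another an exact permutation test of 2 libraries against 2 could not reach 0.05. No test over all 3 days was made of these shares. In muscle cells of that depth the share was 18.3% and 17.5% at Day 2, on 278 and 303 cells, against the 22.5% and 23.7% of all deep cells. At later days there were between 7 and 34 such cells a library. Muscle cells were planned as the level outside the cycle, and whether they had left it was not tested. The share can thus not be read as dividing cells alone. Within the cells of at least 5, the mean was 9.35 and 8.28 mitotic UMIs of 1000 at Day 2, then 8.72 and 8.82, then 8.45 and 8.57, and in the other deep cells it was 0.748 and 1.22, then 0.333 and 0.306, then 0.332 and 0.352. The limit of 5 chose cells by the same UMIs that were averaged, so these means cannot show whether each dividing cell held less. The limits of 5 and 3000 UMIs were set after the data had been seen.

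**Figure D3:**
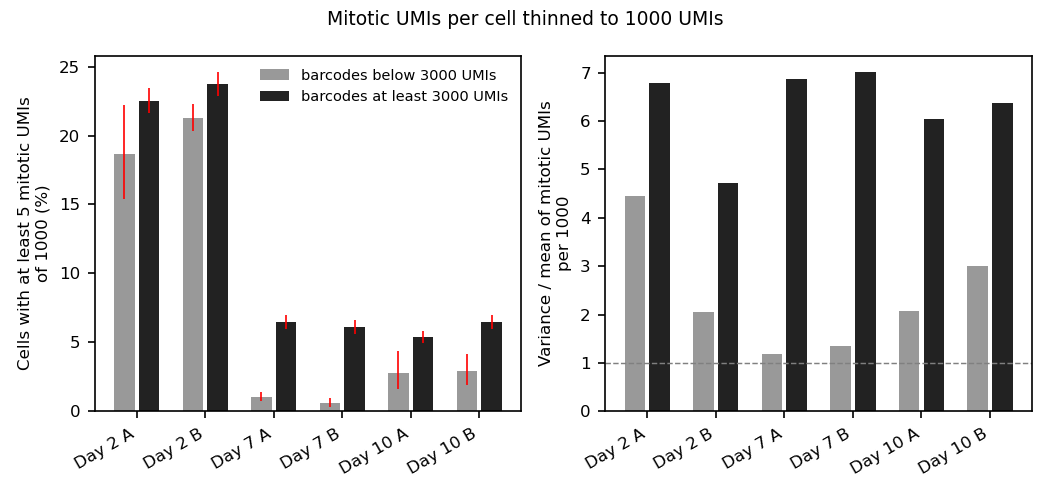
Mitotic UMIs per cell after thinning to 1000 UMIs, in cells below (grey bars) and at or above 3000 UMIs (black bars) of each library, as the share of cells with at least 5 (left, with exact 95% binomial intervals in red) and as variance over mean (right, with a dashed line at 1). Deep cells of Day 7 and Day 10 keep a variance over 6 times the mean while shallow cells of Day 7 lie near 1.

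To compare division genes between cells by the tissue genes they carried, cells with a UMI of Matn1, a cartilage matrix protein, of Tnmd, a tendon membrane protein, of Cnn1, a contractile protein, or of Prg4, the lubricant of joint surfaces, were summed per library and compared with the cells without it, library by library, in edgeR. Such cells were mostly deeper than the rest, at a median of 11643 against 3552 UMIs for Matn1 in Day 7 replicate A and 34131 against 15020 for Cnn1 in Day 10 replicate A. A deep cell can show a marker more readily, but the part of this in the gap was not tested. The comparison was therefore made also on cells of at least 3000 UMIs with the marker read from 1000 of their UMIs, called equal depth here, a setting chosen after seeing the data. This sets the depth of the marker reading alone, and the classes still differed in UMIs per cell, with medians of 22519 with Matn1 against 13453 without in Day 7 replicate B, 6599 against 13064 for Tnmd in Day 2 replicate B and 30181 against 18408 for Prg4 in Day 7 replicate A. At equal depth, cells that carry a marker but lost its UMI in thinning count as cells without it. For Cnn1 the medians were 33879 against 17909 in Day 7 replicate A.

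A UMI of a marker is not a fate, since free RNA gives UMIs too. Matn1 was read in 10 of 34 and 5 of 19 deep muscle cells at Day 7, 29.4% and 26.3% at median depths of 34957 and 31878 UMIs, against 42.3% and 38.6% of all deep cells, whose medians were 18576 and 17053. The exact 95% intervals of the muscle shares, 15.1 to 47.5% and 9.15 to 51.2%, took in the share of all deep cells. At Day 10 Matn1 was read in 2 of 7 and 1 of 8 muscle cells, against 23.2% and 23.5% of all deep cells, and at Day 2 in 0 of 278, where 3 counts would be 1.08% and the exact upper bound is 1.32%, and in 1 of 303. With so few muscle cells, shares of Matn1 at Day 7 and Day 10 could not be told apart between muscle cells and all deep cells. Whether free RNA or doublets, which were not removed, gave Matn1 to muscle cells was not tested. Cells with Matn1, as counted, did hold more of the chondrocyte list with Matn1 itself left out. At Day 7 they held 17380 and 16880 CPM of it, against 3192 and 2381 in the others. Prg4 was read in 1.49% and 1.09% of all deep cells at Day 7 and in 1 of 34 and 1 of 19 muscle cells, and Cnn1 in 5.61% and 5.23% against 1 of 34 and 3 of 19. Tnmd was read in none of the 34 and 19, where 3 counts would be 8.82% and 15.8% and the exact upper bounds are 10.3% and 17.6%, against 1.14% and 1.32% of all deep cells. How many cells of a class carry its marker from free RNA was not tested.

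At equal depth, cells with Matn1 held fewer transcripts of mitotic members than other cells at Day 7 and Day 10. There, 1 member was higher and 13 lower at Day 2, against 4.49% and 10.3% of all genes, 4 were higher and 37 lower at Day 7, against 33.0% and 34.0%, and 2 were higher and 41 lower at Day 10, against 32.0% and 33.0%. All 26 mitotic members were lower at Day 7 and at Day 10, with medians of -0.79 and -1.30, after -0.44 at Day 2. The difference itself changed between Day 2 and Day 10 for 34 members, 33 of them towards lower, against 4.38% of all genes, and 1 towards higher, against 9.68%. As counted, without regard to depth, 6 were higher and 4 lower at Day 2, against 10.5% and 16.5% of all genes, 4 and 29 at Day 7, against 23.0% and 22.6%, and 1 and 24 at Day 10, against 16.1% and 18.9%, and the difference became lower between Day 2 and Day 10 in 18, against 7.17%, and higher in 3, against 12.0%.

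In single libraries, Plk1, the Polo kinase, stood in cells with and without Matn1 at 40.7 and 66.1 CPM (UMIs of the class as the total, without TMM factors, as in all equal-depth levels) in Day 2 replicate A and at 52.5 and 64.2 in replicate B. At Day 7 it stood at 11.2 and 27.6 and at 13.4 and 26.2, and at Day 10 at 6.69 and 22.1 and at 7.88 and 26.1. Cells with Matn1 were lower in 6 of 6 libraries, and the log2 difference was -0.55 ± 0.17, -0.90 ± 0.07 and -1.58 ± 0.08 by day. Rrm2 was already lower at Day 2, with -1.31 ± 0.13, and stayed so with -1.26 ± 0.05 and -1.54 ± 0.05. For the helicase subunit Mcm5 the difference was 0.01 ± 0.13 at Day 2, -0.49 ± 0.05 at Day 7 and -1.29 ± 0.06 at Day 10. Its Day 2 replicates went opposite ways, at 38.0 CPM with Matn1 against 46.7 in replicate A and 62.1 against 49.4 in replicate B. Over the 10 replication members the median went from -0.00 to -0.23 and -0.97.

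The D cyclins and the inhibitors were mixed in cells with Matn1, and at Day 10 Ccnd1, Cdkn1b, Cdkn2a and Cdkn2b were lower while Ccnd3 and Cdkn1a were higher. Ccnd1, Ccnd2 and Ccnd3 were all higher at Day 7, by between 0.28 and 0.45, and stood between -0.11 and 0.15 at Day 10. Their summed levels with and without Matn1, without TMM factors, were 921.2 and 828.7 CPM and 917.1 and 812.3 at Day 7. At Day 10 these were 800.6 and 859.4 and 848.4 and 911.4. The differences include TMM factors and the levels do not, so small differences hold relative to the other genes only. Cdkn1a was lower at Day 2, by 0.37 ± 0.10, and higher at Day 7, by 0.48 ± 0.05, and at Day 10, by 0.62 ± 0.05, where cells with and without Matn1 had 523.7 and 388.7 CPM in replicate A and 602.4 and 415.3 in replicate B. Its difference rose by 0.99 ± 0.11 between Day 2 and Day 10. Cdkn2a and Cdkn2b were far lower, by 3.17 ± 0.09 and 2.56 ± 0.06 at Day 7 and by 2.11 ± 0.07 and 1.91 ± 0.05 at Day 10. Cdkn2a stood at 22.6 and 32.5 CPM in the cells with Matn1 at Day 10 and at 123.8 and 134.9 in the others, and it was lower in cells with Matn1 in 6 of 6 libraries.

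Of deep cells with Matn1, 19.4% and 22.8% had at least 5 mitotic UMIs at Day 2, on 62 and 92 cells, against 22.6% and 23.7% of those without. At Day 7 it was 3.72% and 4.47%, against 8.49% and 7.13%, and at Day 10 1.81% and 2.93%, against 6.44% and 7.52%. The 95% intervals of both classes were apart in each Day 7 and Day 10 library, the nearest being 3.83 to 5.20% and 6.48 to 7.82% in Day 7 replicate B. The markers of other tissues moved with Matn1, since at Day 10 its cells, as counted, held 13920 and 12830 CPM of the chondrocyte list with Matn1 itself left out, against 1593 and 1324, and 90.0 and 94.9 CPM of macrophage markers, against 149 and 216. At Day 2 they held 69.1 and 18.2 CPM of muscle markers, against 502.5 and 398.4. Contractile markers were then at 1654 and 1598 CPM, against 4348 and 3639, and erythroid markers at 0.555 and 1.75, against 56.8 and 136.5. The part of these lists in the Matn1 result was not tested. Leaving out single libraries kept 35 to 38 members lower at Day 7 and 40 or 41 at Day 10, while at Day 2 the 13 became 3 without Day 2 replicate A and 19 to 25 without a library of Day 7 or Day 10. As counted, the 6 higher at Day 2 became 2 without Day 2 replicate A and 11 without Day 2 replicate B, the 4 lower there became 7 without either library of Day 7, the 29 of Day 7 became 15 without Day 7 replicate A, and the 24 of Day 10 became 13 without Day 10 replicate A and 9 without Day 10 replicate B.

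**Figure D4:**
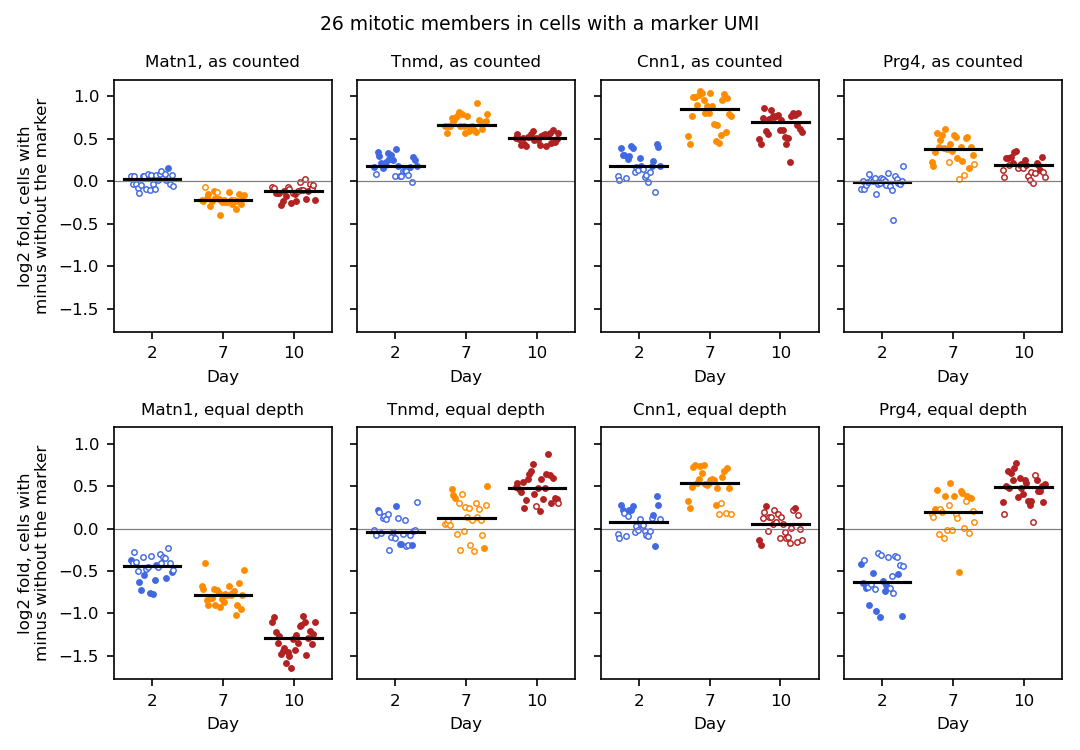
Log2 fold of each of the 26 mitotic members between cells with and without a marker at each day, as counted (upper panels) and at equal depth (lower panels), with filled points for an adjusted p under 0.05 and bars for the median. For Matn1 the median reaches -1.30 at Day 10 at equal depth, and for Cnn1 it is 0.54 at Day 7 and 0.05 at Day 10.

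At equal depth, cells with Tnmd held more of the division genes than other cells at Day 10 and differed in fewer of them before. There, 2 members were higher and 10 lower at Day 2, against 3.33% and 10.0% of all genes, 9 and 5 at Day 7, against 6.02% and 8.02%, and 35 and 3 at Day 10, against 5.97% and 6.69%. The mitotic median went from -0.04 to 0.12 and 0.48, and for 28 members the difference was higher at Day 10 than at Day 2, against 5.68% of all genes, and edgeR called no member lower, against 2.12%. Plk1 stood at 35.2 and 18.2 CPM in cells with and without Tnmd of Day 10 replicate A and at 27.7 and 21.9 in replicate B, with a difference of 0.65 ± 0.10. Cdkn1a was lower in cells with Tnmd at every day, by 1.58 ± 0.08, 1.13 ± 0.07 and 0.94 ± 0.05, and so was Ccnd1, by 0.84 ± 0.06, 0.32 ± 0.07 and 0.50 ± 0.05. The cells numbered between 90 and 235 a library, and those with at least 5 mitotic UMIs were 24.4% and 29.1% on Day 2, 3.77% and 11.2% on Day 7 and then 11.1% and 8.93%. Among cells without Tnmd they were 22.5% and 23.6%, then 6.51% and 6.03%, then 5.22% and 6.40%, so cells with Tnmd had the lower share in Day 7 replicate A, and the exact 95% intervals were apart in Day 10 replicate A alone, at 7.36 to 15.8% and 4.78 to 5.69%. Other tissues moved with the class, since at Day 10 cells with Tnmd, as counted, held 5009 and 4172 CPM of the chondrocyte list against 11840 and 10530, 6860 and 7375 CPM of contractile markers against 5194 and 5315, and 28.0 and 42.9 CPM of macrophage markers against 124.6 and 152.8. Their part in the result was not tested.

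Replicates weighed unequally in this result. Without Day 10 replicate A the 35 members higher at Day 10 became 13, without Day 7 replicate B the 9 of Day 7 became 3, and without Day 2 replicate A the 2 of Day 2 became 0, and the 10 lower there 4. As counted, 23 members were higher and 5 lower at Day 2, against 16.4% and 17.1% of all genes, 39 and 3 at Day 7, against 18.9% and 15.7%, and 39 and 2 at Day 10, against 15.7% and 12.0%. The difference as counted became higher between Day 2 and Day 10 in 32, against 11.4%, and lower in 1, against 9.40%. The 23 became 5 without Day 2 replicate A. With cells that carry another of the 4 markers left out, the 39 of Day 10 became 4, and with all cells thinned to 1000 UMIs, 1. Leaving out cells with another marker cut the Tnmd class of Day 10 replicate A from 1465 cells to 253. The share of all genes called in these settings is not given here.

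Read at equal depth, cells with Cnn1 stood apart mostly at Day 7, while as counted they did so at Day 10 too. At equal depth 13 members were higher and 5 lower at Day 2, against 14.1% and 20.3% of all genes, 34 and 1 at Day 7, against 24.9% and 24.0%, and 13 and 2 at Day 10, against 21.8% and 19.6%. The mitotic median was 0.08, 0.54 and 0.05 by day, and the difference changed between Day 2 and Day 10 in 9 members towards higher, against 11.9% of all genes, and in 2 towards lower, against 7.41%. None of the 9 was a mitotic member, and 7 were replication members. At Day 10, 8 of 10 replication members were higher in cells with Cnn1 and 2 of 26 mitotic members were, with 2 lower, Top2a (-0.14 ± 0.05) and Mki67 (-0.19 ± 0.06). The replicates of Day 10 went opposite ways, with summed mitotic levels of 1027 CPM with Cnn1 against 909.7 without in replicate A. In replicate B they were 944.6 against 1112.

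Rrm2 was higher in cells with Cnn1 in 6 of 6 libraries, at 147 against 105 and 155 against 99.0 CPM at Day 2, 61.1 against 32.6 and 72.0 against 30.3 at Day 7 and 64.6 against 41.1 and 62.9 against 41.0 at Day 10. The differences were 0.60 ± 0.06, 1.09 ± 0.06 and 0.71 ± 0.06. Cdkn2a was also higher there, by 0.84 ± 0.09, 1.75 ± 0.05 and 1.12 ± 0.04, and reached 183.8 and 216.5 CPM at Day 10 against 92.2 and 101.6 in the other cells. Cells of at least 5 mitotic UMIs were 8.80% and 10.7% of those with Cnn1 at Day 7, against 6.34% and 5.85% of those without, and 6.67% and 6.36% at Day 10, against 5.27% and 6.45%. The intervals of both classes overlapped in 3 of these 4 libraries and were apart in Day 7 replicate B, at 8.14 to 13.8% and 5.37 to 6.35%.

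As counted, 21 members were higher and 3 lower in cells with Cnn1 at Day 2, against 21.7% and 24.9% of all genes, 39 were higher and 0 lower at Day 7, against 26.8% higher, and 40 were higher and 1 lower at Day 10, against 27.7% and 25.2%. That difference became higher between Day 2 and Day 10 in 36, against 15.7%, and lower in 2, against 12.3%. The 40 of Day 10 thus became 13 when the marker was read at equal depth. Cells without Cnn1 held more muscle RNA at Day 2, as counted, with 875.7 and 652.9 CPM against 151.9 and 107.6, and more macrophage RNA at Day 10, with 201.7 and 255.4 CPM against 31.1 and 33.4. Cells with Cnn1 held less of the chondrocyte list in 6 of 6 libraries, with 9245 and 9704 CPM against 21670 and 19360 at Day 7 and 6050 and 5542 against 16390 and 14280 at Day 10, and at equal depth Matn1 was read in 18.0% and 16.0% of them at Day 7, against 43.8% and 39.8% of the others. The part of these in the result was not tested. At equal depth, the 13 of Day 2 became 4 without Day 2 replicate B, and the 13 of Day 10 became 23 without Day 10 replicate B, while without Day 10 replicate A 10 were higher and 11 lower.

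Cells with Prg4 were few at equal depth, namely 23 and 19 on Day 2, 139 and 103 on Day 7 and then 242 and 224. There 13 members were lower and 0 higher at Day 2, against 1.99% of all genes lower, 21 were higher and 5 lower at Day 7, against 10.3% and 11.6%, and 30 were higher and 2 lower at Day 10, against 7.63% and 8.50%. For 23 members the difference was higher at Day 10 than at Day 2, against 4.38% of all genes, and for 1 it was lower, against 1.91%. The replicates of Day 7 disagreed, with summed mitotic levels of 1702 CPM in cells with Prg4 against 1064 without in replicate A and of 855.0 against 1125 in replicate B. Without Day 7 replicate A the counts at Day 7 were 3 higher and 13 lower, and without Day 10 replicate A those at Day 10 were 4 higher and 2 lower. As counted, cells with Prg4 held 7194 and 5157 CPM of the chondrocyte list at Day 7 against 17540 and 16020, 5172 and 4554 at Day 10 against 11880 and 10470, and at Day 10 45.4 and 27.6 CPM of macrophage markers against 121.4 and 154.8. Contractile markers were at 5887 and 6263 CPM against 3160 and 3486 at Day 7, and at 5817 and 5919 against 5553 and 5728 at Day 10. The articular list without Prg4 itself was lower in cells with Prg4 in 6 of 6 libraries, at 32.9 and 31.0 CPM against 55.8 and 51.1 at Day 7 and at 29.7 and 29.4 against 43.1 and 39.3 at Day 10, so these cells are named here by the gene alone. That sum rests mostly on Sema3d, with 8769 UMIs in Day 10 replicate A against 581 of Tspan15 and 531 of Vit. The part of these marker lists in the result was not tested.

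At Day 7 and Day 10 both replicates had less Ccnd1 and more Rrm2 in cells with Prg4, while at Day 2 Rrm2 was at 60.0 CPM against 109.3 without Prg4 in replicate A and at 128.2 against 104.5 in replicate B. Ccnd1 stood at 48.8 against 142.6 and 61.7 against 132.5 CPM at Day 7 and at 101.9 against 189.2 and 115.0 against 221.0 at Day 10, with differences of -1.40 ± 0.09 and -0.90 ± 0.07. Rrm2 was higher by 1.28 ± 0.09 and 0.92 ± 0.08 at those days, and Cdkn1a lower by 0.39 ± 0.07 and 0.68 ± 0.07. At Day 7, Rrm2 was at 114.2 CPM with Prg4 against 33.3 without in replicate A and at 55.8 against 33.5 in replicate B. The gap between these replicates is larger than the SE of 0.09 conveys. Cells with at least 5 mitotic UMIs were 13.7% and 5.83% of those with Prg4 at Day 7 and 8.68% and 7.59% at Day 10, against 6.37%, 6.105%, 5.28% and 6.41% of those without. As counted, 4 members were lower at Day 2, against 9.48% of all genes, 34 higher and 2 lower at Day 7, against 21.3% and 17.2%, and 25 and 2 at Day 10, against 16.2% and 14.1%, and the change between Day 2 and Day 10 was upward in 18, against 14.8%, and downward in 1, against 3.76%. The 25 became 10 without Day 10 replicate A, and with cells that carry another marker left out both the 34 and the 25 became 0.

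**Figure D5:**
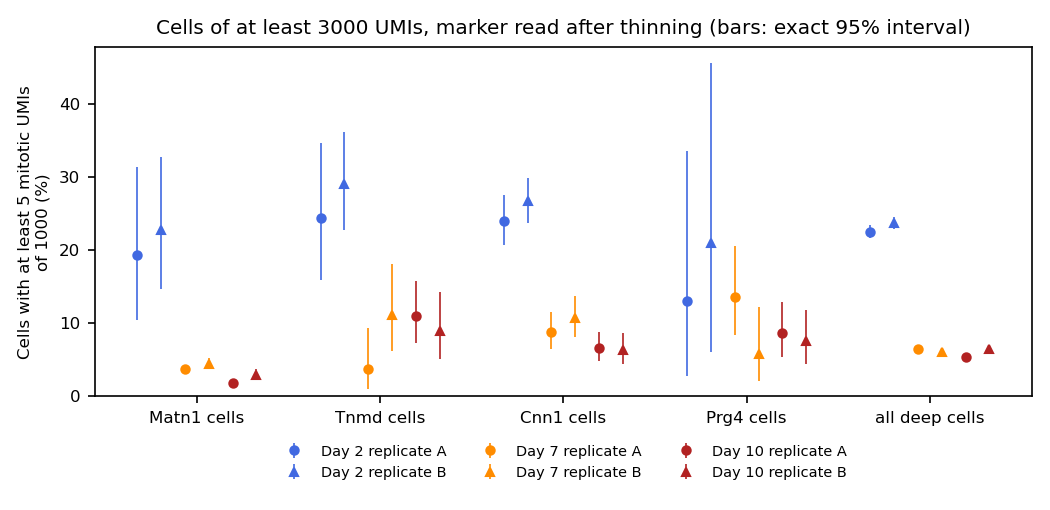
Share of cells with at least 5 mitotic UMIs of 1000 among cells of at least 3000 UMIs, for cells with each marker read from 1000 UMIs and for all such cells, with exact 95% binomial intervals. Day 2 lies highest for Matn1, Tnmd and Cnn1 cells, and cells with Matn1 have the lowest shares at Day 10, 1.81% and 2.93%.

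Cells with a UMI of only 1 of the 4 markers were also compared with each other, with those of Cnn1 as the reference and at the depth as counted, at medians of 6895 UMIs for Matn1 and 12738 for Cnn1 in Day 7 replicate A. In Day 10 replicate B the medians were 11554 UMIs on 3255 cells of Matn1 alone and 28936.5 on 1028 of Cnn1 alone. Cells of Prg4 alone in Day 7 replicate A were 98, at a median of 5093. Counts from cells of at least 3000 UMIs are not given here, so depth cannot be told apart from these differences. Cells of Matn1 alone were lower than cells of Cnn1 alone in 37 members at Day 7, against 25.8% of all genes, and in 38 at Day 10, against 24.8%, and higher in 2 and 1, against 27.5% and 29.5%. The mitotic medians were -0.86 and -0.73. Leaving out single libraries left between 25 and 40 members lower, and the 2 that were higher at Day 7 were lost without Day 7 replicate A and without Day 7 replicate B. Cells of Tnmd alone differed from cells of Cnn1 alone in fewer members, with 5 lower and 2 higher at Day 7, against 11.4% and 8.19%, and 10 lower and 1 higher at Day 10, against 12.0% and 7.94%.

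None of the 10 was a mitotic member and 7 were replication members, among them Rrm2 (-1.50), Ccne2 (-1.21) and Mcm5 (-0.65), whereas Cdkn1b (0.39) was the 1 that was higher. The 10 became 2 without Day 10 replicate A and 16 without Day 2 replicate A. Cells of Prg4 alone were lower than those of Cnn1 alone in 4 members at Day 7, against 5.82%, and in 6 at Day 10, against 6.47%, and at both days Ccnd2, Cdkn1a, Cdkn2a and Cdkn2b were among them. The 4 became 0 without Day 7 replicate A, 2 without Day 7 replicate B and 9 without either library of Day 10, and the 6 became 2 without Day 10 replicate B and 11 without Day 2 replicate A.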

How the data were processed

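Distal forelimb cells of DID cultures were sequenced with 10x Genomics 3′ libraries, and the deposited matrices hold UMI counts per gene and barcode, which the authors made with Cell Ranger 6.1.2 (STAR, GRCm38/mm10) without normalization. Whether intronic reads were counted is not given in the sources used here, nor is a removal of doublets, and none were removed here. The limits of the study were applied per library (at least 800 to 1000 UMIs, 200 to 7500 genes, at most 25 to 40% mitochondrial and 35 to 40% ribosomal UMIs), with genes seen in at least 3 barcodes, leaving 9448 to 16485 cells and 178021111 to 260245417 UMIs.

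UMIs were summed per library, or per library and class of cells, and fitted with edgeR 4.0.16 in R 4.3.3 (filterByExpr, TMM, quasi-likelihood test, Benjamini-Hochberg adjustment over all genes tested, adjusted p under 0.05). Days were compared without a block, and marker classes with the library as a covariate, a term for each day and the marker gene left out. The SE is the log2 fold over the square root of the test's F. Each gene has 1 spread for sums of many and of few cells. In marker classes of few cells the SE can therefore be too small and the calls too many. The fit of whole cultures (Day 10 against Day 7) and that of Cnn1 as counted (Day 10) were checked on simulated counts. The equal-depth fits were not. DESeq2 1.42.0, other scalings, filters, depths and leaving out each library were alternatives. Python 3.11.15 with numpy 2.4.6 and scipy 1.17.1 did the thinning (seed 11) and exact binomial intervals.

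Sums of under 10 cells were not used. Named are all 44 members and, of the wider lists, the 3 genes with the largest change per comparison among those called with at least 10 CPM at one of its days. The members, lists and tests were chosen with earlier results of these data known, and the equal-depth reading and the limits of 3000 and 5 UMIs after these data were seen. Comparisons between days share libraries. The labels give separate cultures for replicates A and B but not whether a letter joins days, and the correlations of the A minus B differences across genes (-0.0093, -0.0768 and 0.01) did not pair them.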

Additional observations from a re-analysis of the deposited data

Results flagged for a closer look

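The difference between cells with and without a marker changed between Day 2 and Day 10 by the interaction term of edgeR's quasi-likelihood test for each of the 4 markers, and each count stands beside the share of all genes that changed in that direction. For Matn1 it became lower in 18 members, against 7.17%, and higher in 3, against 12.0%. At equal depth, a reading added after seeing the data, these were 33, against 4.38%, and 1, against 9.68%. For Tnmd it became higher in 32 members, against 11.4%, and lower in 1, against 9.40%, and at equal depth in 28, against 5.68%, and in 0, against 2.12%. For Cnn1 it became higher in 36 members, against 15.7%, and lower in 2, against 12.3%. At equal depth the Cnn1 counts were 9, against 11.9%, and 2, against 7.41%. For Prg4 it became higher in 18 members, against 14.8%, and lower in 1, against 3.76%. At equal depth these were 23, against 4.38%, and 1, against 1.91%, resting on 23 and 19 cells with Prg4 at Day 2.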

How the results depend on the processing

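Of the single members' log2 folds between days, set against every alternative, 1772 values kept their direction and side of the threshold, 54 lost the call, 18 gained it and 4 turned. With library totals alone Ccnd3 turned to -0.0053 at Day 7 and -0.0104 at Day 10, both against Day 2, and E2f1 to -0.0558 at Day 7. With cells thinned to 1000 UMIs Cdkn3 turned to -0.51 between Day 2 and Day 10. Thinning also moved the members higher at Day 10 than at Day 7 to 6. The replicate letters did not pair the libraries, and with a replicate block 11 members were higher and 11 lower in that comparison. The cause of these shifts was not tested.

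For cells with a marker as counted, settings are given in the order Day 2, Day 7, Day 10 where all moved by more than 1.5 times. Members lower with Matn1 were 16 at Day 2 and 39 at Day 10 with at least 3 marker UMIs, 2 at Day 2 with thinned cells, 7 and 18 at Day 2 and Day 7 with cells of another marker left out, 13 at Day 2 and 41 at Day 10 at equal depth, 14 at Day 2 with no filter, and 13 at Day 7 and 7 at Day 10 with no library block. Members higher with Tnmd were 0, 0 and 1 with thinned cells, 0, 25 and 4 with another marker left out, 2 and 9 at Day 2 and Day 7 at equal depth, and, at Day 2, 3 without the 5% of cells with most UMIs, 15 with totals alone and 6 with no library block. Members higher with Cnn1 were 1, 10 and 5 with thinned cells, 10 at Day 2 and 24 at Day 10 with another marker left out, 13 at both these days at equal depth, and 13 at Day 2 with no library block. Members higher with Prg4 were 1 at Day 2 with at least 3 UMIs, 1 at Day 7 and 0 at Day 10 with thinned cells, 0 at both with another marker left out, 21 at Day 7 at equal depth and 13 at Day 10 with no library block. Equal depth was chosen after seeing the data. Shares of all genes called are not given for these settings or for libraries left out. Fewer calls among members can thus not be told apart from fewer calls over all genes.

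The share of cells with a mitotic UMI, from Day 2 replicate A to Day 10 replicate B, was 65.5, 80.1, 44.2, 40.2, 41.0 and 42.0% at 3000 UMIs, 89.8, 94.5, 78.6, 73.2, 81.9 and 78.2% without thinning, and 38.6, 57.2, 16.6, 13.7, 12.8 and 14.1% for at least 2 UMIs. For at least 5 in cells of at least 3000 UMIs it was 22.5, 23.7, 6.47, 6.102, 5.36 and 6.44%. With all deposited barcodes it was 53.4% in Day 2 replicate A and 26.8% in Day 10 replicate A.

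Leaving out each library in turn gave 35 to 36 members lower and 5 to 6 higher at Day 7 than at Day 2, 5 to 10 higher and 8 to 13 lower at Day 10 than at Day 7, and 35 to 37 lower at Day 10 than at Day 2. As counted, by day, members lower with Matn1 were 3 to 7, 15 to 29 and 9 to 27. Members higher were 5 to 22, 39 to 40 and 34 to 39 with Tnmd, 15 to 24, 39 and 37 to 40 with Cnn1, and 0, 28 to 36 and 10 to 33 with Prg4. At equal depth the same counts were 3 to 25, 35 to 38 and 40 to 41 for Matn1, 0 to 2, 3 to 9 and 13 to 35 for Tnmd, 4 to 16, 26 to 37 and 10 to 23 for Cnn1, and 0, 3 to 31 and 4 to 33 for Prg4. Against cells of Cnn1 alone, members lower at Day 7 and Day 10 were 25 to 38 and 30 to 40 for Matn1, 4 to 7 and 2 to 16 for Tnmd, and 0 to 9 and 2 to 11 for Prg4. With 1 library left at a day, its spread was taken to be like that of the other days. Depth limits Day 2 replicate B and Day 7 most, where shallow cells are most frequent.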
